A study of Homo sapiens with 6 samples.

Results

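The genes described here are 46 components of the pathway that runs from phosphoinositide 3-kinase (PI3K) through AKT to mTOR, together with its inhibitors, the energy-sensing kinase AMPK and the FOXO transcription factors. They were taken by name from a list, out of the 21619 genes in the count files, and all 46 were found. The list was made with earlier results of these data known. The cells were MDA-MB-231, a human breast cancer line that lacks oestrogen receptor, carrying an EGFP-tagged copy of the ribosomal protein L10a. In translating ribosome affinity purification (TRAP), beads coated with an antibody to GFP capture the tagged ribosomes with their bound mRNA, and polyadenylated RNA from that capture was sequenced. All cultures had first spent 24 h in 0.2% serum. Untreated cells then received neither factor. The lower dose was 30 ng/mL of the chemokine CXCL12 with 10 ng/mL of the growth factor IGF1, and the higher dose was 300 ng/mL CXCL12 with 100 ng/mL IGF1, each for 6 h. There were 2 libraries per condition, called a and b below. CXCL12 and IGF1 were always given together, so their effects cannot be told apart, and whether the tagged line is 1 clone is not given in the sources used here.

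Insulin-like growth factor receptors recruit PI3K, whose lipid product at the plasma membrane brings AKT to its activating kinases, PDPK1 and mTOR complex 2. AKT relieves the brake that TSC1 and TSC2 place on the small GTPase RHEB, which switches on mTOR complex 1 at the lysosome, and it keeps FOXO factors out of the nucleus. CXCR4, the receptor of CXCL12, also feeds PI3K. The pathway restrains itself: FOXO factors drive genes for upstream components, and mTOR complex 1 and its kinase S6K1 damp the signal from insulin-type receptors, partly through GRB10. AMPK, switched on by LKB1 when energy runs low, opposes mTOR complex 1. Most of this control acts on proteins by phosphorylation, which RNA libraries do not measure.

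Reads on genes ranged from 26255079 in untreated a to 30280322 in untreated b. At these depths 3 reads, the limit that a count of 0 allows, were 0.0991 to 0.114 CPM (reads scaled to the size of the library). The labelled line was checked against listed markers. VIM, CD44, FN1, AXL and CAV1 stood at 229.0 CPM or above in every library, and ESR1, PGR and CDH1, listed as low or absent in the line, at 0.450 CPM or below. The other 3 so listed were present, ERBB2 at 54.3 to 77.2 CPM, EPCAM at 11.3 to 13.6 CPM and GATA3 at 9.39 CPM or above. CD3E and CDH5, of T cells and endothelium, had no read, PTPRC of leukocytes reached at most 0.532 CPM, and COL1A2 and DCN of fibroblasts at most 0.114 CPM. Other markers of these cell types had reads in every library, with CD68 of macrophages at 249.7 to 279.6 CPM, COL1A1 of fibroblasts at 5.95 to 7.20 CPM and PECAM1 of endothelium at 1.13 to 1.94 CPM. The part of such cells in the results was not tested. Fewer cells holding an mRNA and less of it per cell cannot be told apart in such libraries, and neither can the abundance of an mRNA and its association with ribosomes, since total RNA was not analysed here. Across the 11962 tested genes with a known length, shorter transcripts were relatively higher after treatment (Spearman rho between log2 fold change and length −0.259 at the higher dose and −0.252 at the lower dose, a description across genes). For the components, values with length and GC content taken out are given where they end or make a call against untreated cells or move such a change by over 1.5 times.

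All but 1 of the components had enough reads to be tested. SGK3, a kinase related to AKT, had 9 and 9 reads in untreated cells, 5 and 10 at the lower dose and 10 and 4 at the higher dose, and was left out. A gene was called changed where its Benjamini-Hochberg adjusted p in edgeR's quasi-likelihood test, over all 13548 genes tested, was under 0.05. At the higher dose against untreated cells 34 of the 45 were called, 17 higher and 17 lower. Over all genes tested 56.3% were called in that comparison, 28.1% higher and 28.2% lower, and of the components 75.6%. The components were also the more abundant genes, with a median level of 47.6 CPM against 25.7 CPM over all genes tested, and the part of abundance in the share called was not tested. At the lower dose against untreated cells 16 were called, 11 higher and 5 lower, which is 35.6% against 32.6% of all genes (16.7% higher and 15.9% lower). Between the higher and the lower dose 22 were called, 11 each way, which is 48.9% against 34.0% of all genes. A difference anywhere among the 3 conditions was called for 33 of the 45 components, against 7534 of the 13548 genes tested (55.6%).

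The changes were small. The median log2 fold change of the tested components was 0.01 at the higher dose and 0.02 at the lower dose, against −0.00 over all genes in both. Only PIK3IP1, FOXO1 and FOXO4 were called with a change of 1.5-fold or more at the higher dose, where 6.90% of all genes met that rule. At the lower dose the largest called change, that of FOXO1 (−0.53), was under it, and 0.760% of all genes met it. PIK3IP1 alone met it between the doses, against 1.33% of all genes. The median size of a called log2 change at the higher dose was 0.23 for components and 0.29 for all called genes. The biological coefficient of variation was 1.79%, so a change of a few percent can be called. The replicates are labelled as biological, and the p-values measure the spread between these libraries only.

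**Figure D1:**
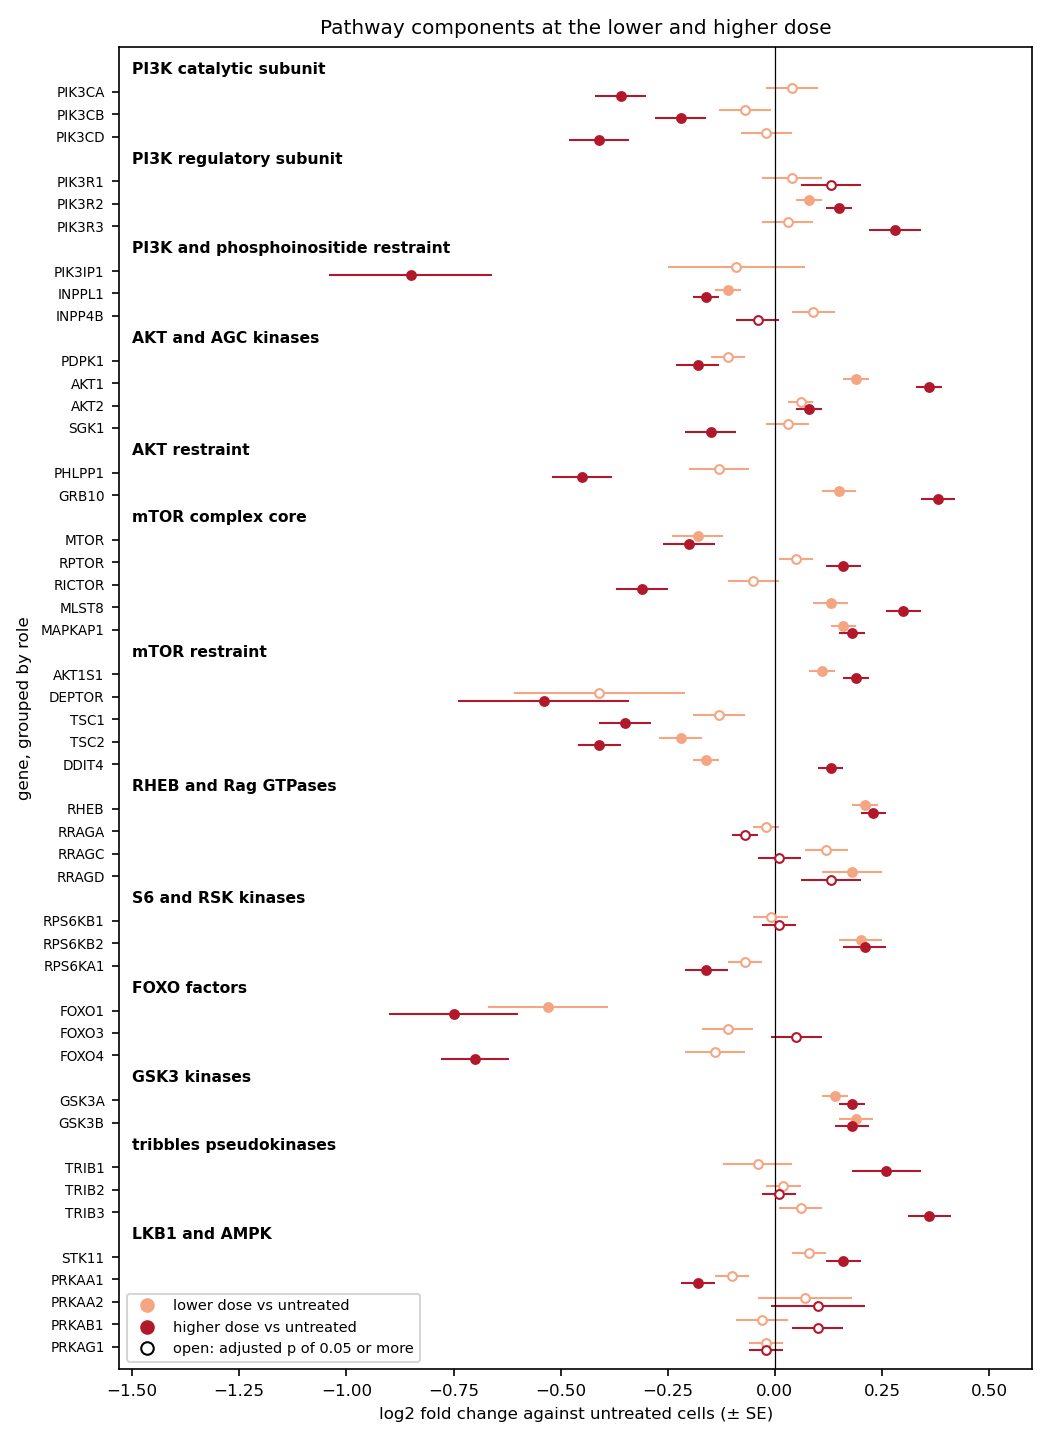
Log2 fold change with its standard error for each of the 45 tested components, grouped by role, at the lower and the higher dose against untreated cells; filled points were called at an adjusted p under 0.05 and open points were not. PIK3IP1 (−0.85), FOXO1 (−0.75) and FOXO4 (−0.70) lie farthest to the left at the higher dose, and GRB10 (0.38) farthest to the right.

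Promoter sequences of the genes were read from RefSeq (GRCh38.p14, 250 bases before to 50 after the start of a gene), which held 39 of the 46 components. They were searched on both strands for the forkhead motif GTAAACA, which FOXO factors share with other forkhead proteins, for the palindrome TCACGTGA bound by the lysosomal MiT/TFE factors that mTOR complex 1 holds back (its core is also an E-box of other factors), and for the composite TGATGNAAT of the stress factor ATF4. The forkhead motif stood in 4 component promoters (10.3%), those of PIK3CA, FOXO4, TRIB2 and STK11, against 3.42% of 35116 promoters. The 35116 were all promoters held, not only those of genes tested here, while 1 promoter was read per component. The difference was not tested. TCACGTGA stood in the promoter of TSC2 alone (2.56% of components, 0.980% of promoters). TGATGNAAT was in no component promoter and in 0.991% of promoters. A match describes letters only. The 3 promoters below are those of components with a match that were called lower at the higher dose, with the motif in capitals. Of the other components with a match, STK11 was called higher at that dose (log2 fold change 0.16) and TRIB2 was not called (0.01). They are PIK3CA at chr3:179148107-179148406, plus strand, where the match lies 149 bases before the start and reads GTAAACA on the other strand, FOXO4 at chrX:71095601-71095900, plus strand, with the match 23 bases after the start, and TSC2 at chr16:2047735-2048034, plus strand, with the match 115 bases before it.
PIK3CA: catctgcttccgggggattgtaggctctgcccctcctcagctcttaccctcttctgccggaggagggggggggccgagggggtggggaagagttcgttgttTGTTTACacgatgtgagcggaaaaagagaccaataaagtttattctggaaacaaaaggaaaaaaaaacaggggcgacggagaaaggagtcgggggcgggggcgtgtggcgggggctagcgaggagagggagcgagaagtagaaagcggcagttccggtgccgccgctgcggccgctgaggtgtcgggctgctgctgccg
FOXO4: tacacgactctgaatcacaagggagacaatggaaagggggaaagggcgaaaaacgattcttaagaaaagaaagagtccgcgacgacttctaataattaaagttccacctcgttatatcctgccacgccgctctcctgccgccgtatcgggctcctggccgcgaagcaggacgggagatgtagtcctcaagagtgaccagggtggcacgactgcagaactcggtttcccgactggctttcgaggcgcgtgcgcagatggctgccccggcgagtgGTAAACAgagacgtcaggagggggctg
TSC2: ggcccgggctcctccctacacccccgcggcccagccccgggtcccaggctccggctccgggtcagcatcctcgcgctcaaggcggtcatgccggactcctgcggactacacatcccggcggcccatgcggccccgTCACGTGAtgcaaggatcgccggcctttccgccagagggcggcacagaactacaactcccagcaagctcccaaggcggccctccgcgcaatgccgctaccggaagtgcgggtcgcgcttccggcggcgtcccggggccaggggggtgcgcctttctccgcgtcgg

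The catalytic subunits of PI3K fell at the higher dose, all 3 of them, where 28.2% of all genes tested fell. At the lower dose, where 32.6% of all genes tested were called, edgeR called none, DESeq2 0, and 0 had an unadjusted p under 0.05. PIK3CA, which encodes the alpha subunit often mutated in breast cancer, had 26.9 and 27.9 CPM without treatment, 27.3 and 29.0 CPM after the lower dose and 21.3 and 21.5 CPM after the higher dose. The untreated and lower dose libraries overlapped, and both higher dose libraries lay under them. PIK3CA fell by 21.9% at the higher dose against untreated cells (log2 fold change −0.36 ± 0.06 SE, adjusted p = 1.01e-06), and was at 0.04 ± 0.06 at the lower dose (adjusted p = 0.651). PIK3CD, the delta subunit best known from leukocytes, had 24.3 and 22.5 CPM without treatment, 23.7 and 22.4 CPM after the lower dose and 17.6 CPM in both higher dose libraries. PIK3CD fell by 24.7% at the higher dose (−0.41 ± 0.07, adjusted p = 3.4e-07) and −0.02 ± 0.06 at the lower dose. After correction for transcript length and GC content its fall was smaller (−0.27), whereas PIK3CA kept −0.33. PIK3CD overlaps CLSTN1, which had up to 6251 reads in a library, and PIK3CA overlaps KCNMB3, which had at most 30. PIK3CB, the beta subunit that G proteins can also switch on, fell by 14.4% (−0.22 ± 0.06, adjusted p = 0.00167). That call was lost without higher dose a (−0.16) and without untreated a (−0.15), and its adjusted p ranged from 0.000131 to 0.074 over 13 alternatives. Between the doses PIK3CA (−0.40) and PIK3CD (−0.39) were called lower at the higher dose.

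Of the regulatory subunits, which hold and stabilise the catalytic ones, PIK3R2 and PIK3R3 rose at the higher dose and PIK3R1 was not called. PIK3R2 was the most abundant of these, at 209.2 and 212.4 CPM without treatment, 223.3 and 221.6 CPM after the lower dose and 229.8 and 238.4 CPM after the higher dose. The 3 conditions did not overlap, and the step was small at each dose. It rose 1.11-fold at the higher dose (0.15 ± 0.03, adjusted p = 1.5e-05), and its call at the lower dose (0.08 ± 0.03, adjusted p = 0.0378) was lost under 6 of 13 alternatives, over which the adjusted p ranged from 0.0011 to 0.187. Among these were the fits without untreated a (0.06), without lower dose a (0.07) and without lower dose b (0.08). PIK3R3 rose by 21.5% at the higher dose (0.28 ± 0.06, adjusted p = 0.000113) and was at 0.03 at the lower dose. PIK3R1, the main regulatory subunit in many tissues, was at 16.2 to 19.6 CPM over all libraries (0.13 ± 0.07 at the higher dose, adjusted p = 0.111). It was called without untreated b (0.25), the library that holds the higher of its untreated values, and its adjusted p ranged from 0.0122 to 0.78.

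Genes that restrain PI3K or remove its lipid products did not rise. PIK3IP1 encodes a membrane protein that binds the catalytic subunit and lowers its activity. It was a weakly expressed gene, with 3.23 and 2.74 CPM without treatment, 2.98 and 2.59 CPM after the lower dose and 1.70 and 1.58 CPM after the higher dose. Untreated and lower dose libraries overlapped, and the higher dose libraries stood apart below them. It fell by 44.7% at the higher dose, the largest change of any component tested (−0.85 ± 0.19, adjusted p = 8.71e-05), and it was also lower than at the lower dose (−0.76 ± 0.19, adjusted p = 0.000962), a comparison for which DESeq2 gave no adjusted p. INPPL1, the lipid phosphatase SHIP2, fell by 10.7% at the higher dose (−0.16 ± 0.03, adjusted p = 2.32e-05) and at the lower dose (−0.11 ± 0.03, adjusted p = 0.00825). With length and GC content taken out it was at −0.04 at the higher dose and −0.01 at the lower dose and was called at neither. Its lower dose call was also lost without untreated a (−0.08) and without lower dose a (−0.08). INPP4B, a phosphatase for a further product of PI3K, was at 34.0 to 38.9 CPM and was called at neither dose against untreated cells (−0.04 ± 0.05 at the higher dose, adjusted p = 0.508). It was called lower at the higher than at the lower dose (−0.14 ± 0.05, adjusted p = 0.0318), which was lost without higher dose a (−0.09), lower dose a (−0.14) or lower dose b (−0.14). DESeq2 lost this call too (−0.14).

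Among AKT and its kinases, AKT1 rose at both doses. It had 161.0 and 167.0 CPM without treatment, 189.9 and 185.5 CPM after the lower dose and 208.9 and 211.9 CPM after the higher dose. The libraries of each condition lay close together, and the conditions did not overlap. AKT1 rose at the lower dose (0.19 ± 0.03, adjusted p = 1.05e-06), by 28.2% at the higher dose (0.36 ± 0.03, adjusted p = 3.71e-15), and between the doses (0.16 ± 0.03, adjusted p = 1.19e-05). AKT2, the paralog tied to insulin-stimulated glucose uptake, had 160.0 and 167.6 CPM without treatment and rose by 5.84% at the higher dose (0.08 ± 0.03, adjusted p = 0.0239). That call was lost without higher dose b (0.05), without untreated a (0.05) and with DESeq2, and its adjusted p ranged from 2.52e-07 to 0.292. After the correction AKT2 was called at 0.18 at the higher dose and 0.13 at the lower dose. PDPK1, the kinase that phosphorylates the activation loop of AKT, fell by 11.5% at the higher dose (−0.18 ± 0.05, adjusted p = 0.000697), and was at −0.08 and not called once length and GC content were taken out. SGK1, an AKT relative, was at −0.15 ± 0.06 at the higher dose (adjusted p = 0.0224). Its call was lost without higher dose a (−0.10), without untreated a (−0.11) and with DESeq2, with an adjusted p between 0.0116 and 0.226.

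The pair of AKT-side inhibitors went opposite ways. PHLPP1, a phosphatase that takes the phosphate from the hydrophobic motif of AKT, had 17.6 and 18.0 CPM without treatment, 16.4 and 15.9 CPM after the lower dose and 12.9 and 13.1 CPM after the higher dose. No library of one condition overlapped another. It fell by 26.8% at the higher dose (−0.45 ± 0.07, adjusted p = 5.65e-07) and was at −0.13 ± 0.07 at the lower dose (adjusted p = 0.139). Its corrected value at the higher dose was −0.29, over a long transcript. GRB10, the adaptor that mTOR complex 1 phosphorylates and that damps insulin and IGF1 receptors, had 63.9 and 61.3 CPM without treatment, 70.5 and 68.1 CPM after the lower dose and 84.3 and 78.0 CPM after the higher dose. Again the conditions were apart. GRB10 rose by 29.7% at the higher dose (0.38 ± 0.04, adjusted p = 1.22e-11), the largest rise of any component tested, and it kept 0.43 after the correction. Its smaller rise at the lower dose (0.15 ± 0.04, adjusted p = 0.00389) was lost without untreated b (0.11), without lower dose a (0.12) and with DESeq2, with an adjusted p between 0.00016 and 0.0714.

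The subunits of the mTOR complexes divided. MLST8, a subunit of both complexes, had 86.9 and 78.8 CPM without treatment, 89.7 and 91.6 CPM after the lower dose and 101.3 and 102.8 CPM after the higher dose. The untreated libraries differed from each other more than those of either dose, and all treated libraries were above them. MLST8 rose by 23.4% at the higher dose (0.30 ± 0.04, adjusted p = 8.51e-10). Its lower dose call (0.13 ± 0.04, adjusted p = 0.00547) was lost without untreated b (0.06), without lower dose b (0.12) and with DESeq2, with an adjusted p between 0.000194 and 0.348. RICTOR, the defining subunit of mTOR complex 2, had 31.8 and 30.0 CPM without treatment, 29.1 and 30.7 CPM after the lower dose and 24.9 and 24.8 CPM after the higher dose. Only the higher dose stood apart. RICTOR fell by 19.4% there (−0.31 ± 0.06, adjusted p = 5.73e-06) and was at −0.05 ± 0.06 at the lower dose. RICTOR overlaps OSMR, which had up to 3048 reads in a library. RPTOR, the defining subunit of mTOR complex 1, rose by 11.8% at the higher dose (0.16 ± 0.04, adjusted p = 0.000147) and by more after the correction (0.31), which also called it at the lower dose (0.15). MAPKAP1, the mTOR complex 2 subunit SIN1, rose by 13.0% (0.18 ± 0.03, adjusted p = 6.68e-06). The kinase MTOR itself fell by 13.0% at the higher dose (−0.20 ± 0.06, adjusted p = 0.00306) and was called lower at the lower dose as well (−0.18 ± 0.06, adjusted p = 0.0115). Without untreated a it was at −0.13 at the higher dose and −0.11 at the lower dose, without lower dose a at −0.18 at the lower dose, and after the correction at −0.06 at the higher and −0.11 at the lower dose, and none of these was called. DESeq2 also lost the lower dose call of MTOR (−0.19).

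Genes that restrain mTOR complex 1 were called in every case at the higher dose, 3 lower and 2 higher. Over all genes tested 56.3% were called there, and DESeq2 called 4 of these 5. TSC2, the GTPase-activating subunit that turns RHEB off, had 56.3 and 53.1 CPM without treatment, 46.2 and 47.3 CPM after the lower dose and 44.5 and 37.9 CPM after the higher dose. It was lower in every treated library, and the higher dose pair differed more from each other than the lower dose pair. TSC2 fell at the lower dose (−0.22 ± 0.05, adjusted p = 0.000251) and fell by 24.5% at the higher dose (−0.41 ± 0.05, adjusted p = 7.97e-10), and the correction left −0.26 at the higher dose and −0.12 at the lower dose, both called. The step between the doses (−0.18 ± 0.05, adjusted p = 0.0045) was lost without higher dose b (−0.07) and with DESeq2, with an adjusted p between 9.84e-05 and 0.439. TSC2 overlaps PKD1, which had up to 980 reads in a library. TSC1, its partner that stabilises it, had 24.7 and 26.0 CPM without treatment, 22.6 and 23.8 CPM after the lower dose and 20.8 and 19.1 CPM after the higher dose. These values descended with dose without overlap. TSC1 fell by 21.4% at the higher dose (−0.35 ± 0.06, adjusted p = 4.69e-06), or −0.26 after the correction.

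DEPTOR, an inhibitor that binds both mTOR complexes, had 2.43 and 2.04 CPM without treatment, 1.70 and 1.66 CPM after the lower dose and 1.60 and 1.47 CPM after the higher dose. All treated libraries were under the untreated ones, at few reads. The higher dose call (−0.54 ± 0.20, adjusted p = 0.0212) was lost without untreated a (−0.42), without higher dose b (−0.48) and with DESeq2, with an adjusted p between 0.0198 and 0.169. AKT1S1, the mTOR complex 1 inhibitor PRAS40 that AKT relieves, rose by 13.7% at the higher dose (0.19 ± 0.03, adjusted p = 4.04e-07) and at the lower dose (0.11 ± 0.03, adjusted p = 0.00301). The second of these calls was lost without lower dose a (0.09), with an adjusted p between 0.000171 and 0.0979. AKT1S1 overlaps TBC1D17, which had up to 2161 reads in a library. DDIT4, the stress-induced protein REDD1 that acts through TSC2, was the only component called in opposite directions at the 2 doses. It had 162.1 and 149.9 CPM without treatment, 141.9 and 136.7 CPM after the lower dose and 171.2 and 170.1 CPM after the higher dose. The lower dose libraries were the lowest and the higher dose libraries the highest. DDIT4 fell at the lower dose (−0.16 ± 0.03, adjusted p = 0.000116), rose by 9.53% at the higher dose (0.13 ± 0.03, adjusted p = 0.000548) and differed between the doses (0.29 ± 0.03, adjusted p = 2.77e-10). Its rise was lost without untreated b (0.07), the lower of its untreated libraries, with an adjusted p between 1.03e-05 and 0.0891.

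Of the GTPases that carry the signal to mTOR complex 1, RHEB was called at both doses, and of the Rag GTPases, which report amino acids, RRAGD was called at the lower dose. RHEB had 286.5 and 304.6 CPM without treatment, 354.2 and 331.3 CPM after the lower dose and 348.4 and 345.7 CPM after the higher dose. Both doses lay above untreated cells and overlapped each other. RHEB rose at the lower dose (0.21 ± 0.03, adjusted p = 1.25e-07) and by 17.4% at the higher dose (0.23 ± 0.03, adjusted p = 3.58e-09). It has a near relative, RHEBL1, with at most 145 reads in a library. Its transcript is short (900 bases), and with length and GC content taken out the higher dose value was 0.06 and not called, with an adjusted p between 7.94e-15 and 0.0581 over 13 alternatives, and the lower dose value was 0.11 and called. RRAGD was called higher at the lower dose (0.18 ± 0.07, adjusted p = 0.0402), a call that was lost with each of the 4 untreated and lower dose libraries left out in turn (0.15 without lower dose a to 0.21 without lower dose b, adjusted p between 0.021 and 0.224 over 13 alternatives). DESeq2 lost the lower dose call of RRAGD as well (0.18). At the higher dose RRAGA (−0.07, adjusted p = 0.0745), RRAGC (0.01, adjusted p = 0.945) and RRAGD (0.13, adjusted p = 0.124) were not called. After the correction RRAGA was called at −0.10 and RRAGD at 0.18 at the higher dose, and RRAGD at 0.20 at the lower dose.

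Of the kinases below them, RPS6KB1, which encodes S6K1, had 51.3 and 49.8 CPM without treatment, 49.2 and 51.1 CPM after the lower dose and 50.3 and 51.4 CPM after the higher dose. All 3 conditions overlapped, and the log2 fold change was −0.01 ± 0.04 at the lower dose (adjusted p = 0.895) and 0.01 ± 0.04 at the higher dose (adjusted p = 0.894). RPS6KB2, its paralog S6K2, rose by 15.5% at the higher dose (0.21 ± 0.05, adjusted p = 0.000228) and to a like value at the lower dose (0.20 ± 0.05, adjusted p = 0.00105). RPS6KA1, the ERK-driven kinase RSK1, fell by 10.4% at the higher dose (−0.16 ± 0.05, adjusted p = 0.00221) and was at −0.08 and not called after the correction.

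FOXO1 and FOXO4 fell and FOXO3 did not. FOXO1 had 4.83 and 4.48 CPM without treatment, 3.46 and 2.97 CPM after the lower dose and 3.12 and 2.39 CPM after the higher dose. Every treated library was under both untreated ones, and the doses overlapped. It fell at the lower dose (−0.53 ± 0.14, adjusted p = 0.00305), the largest called change of a component there, and fell by 40.7% at the higher dose (−0.75 ± 0.15, adjusted p = 2.21e-05). The lower dose call was lost without lower dose b (−0.42), with an adjusted p between 0.00146 and 0.0627 over 12 alternatives, and DESeq2 gave it no adjusted p. FOXO4 had 16.7 and 16.5 CPM without treatment, 15.0 and 15.1 CPM after the lower dose and 9.86 and 10.6 CPM after the higher dose. Its lower dose libraries sat just under the untreated ones (−0.14 ± 0.07, adjusted p = 0.131) and its higher dose libraries far under both. FOXO4 fell by 38.5% at the higher dose (−0.70 ± 0.08, adjusted p = 4.51e-11), and the step from the lower dose was −0.56 ± 0.08 (adjusted p = 1.18e-07). After the correction FOXO1 stood at −0.65 and FOXO4 at −0.66 at the higher dose. FOXO3, a very close relative of FOXO1 in its DNA-binding domain, was at 22.4 to 25.4 CPM (0.05 ± 0.06 at the higher dose, adjusted p = 0.517). It was called at 0.19 after the correction, with an adjusted p between 0.00397 and 0.788. FOXO3 was also called higher at the higher than at the lower dose (0.16 ± 0.06, adjusted p = 0.0374), a call lost with any of these 4 libraries left out (0.14 to 0.17). DESeq2 lost that call too (0.16). FOXO3 has a near copy, FOXO3B, with at most 106 reads in a library, so reads may be split between them.

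Both GSK3 kinases, which AKT phosphorylates and so inhibits, rose at either dose. Over all genes tested 28.1% rose at the higher dose and 16.7% at the lower dose. GSK3A had 141.3 and 141.5 CPM without treatment, 155.4 and 156.9 CPM after the lower dose and 160.0 and 159.5 CPM after the higher dose. The conditions did not overlap, and most of the step was present at the lower dose (0.14 ± 0.03, adjusted p = 0.000213), with 13.0% at the higher dose (0.18 ± 0.03, adjusted p = 2.64e-06) and 0.03 ± 0.03 between the doses (adjusted p = 0.453). GSK3B rose by 13.3% at the higher dose (0.18 ± 0.04, adjusted p = 0.000314) and at the lower dose (0.19 ± 0.04, adjusted p = 0.000518).

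The tribbles pseudokinases are scaffolds that bind ubiquitin ligases, and TRIB3, a target of ATF4, has also been described as an AKT inhibitor. TRIB3 had 60.2 and 53.0 CPM without treatment, 62.0 and 56.0 CPM after the lower dose and 71.4 and 73.3 CPM after the higher dose. Untreated and lower dose libraries overlapped, and the higher dose was above them, with a rise of 28.2% (0.36 ± 0.05, adjusted p = 1.63e-09) and 0.06 ± 0.05 at the lower dose (adjusted p = 0.324). TRIB1 rose by 19.4% at the higher dose (0.26 ± 0.08, adjusted p = 0.00559), a call lost without higher dose a (0.22) and with DESeq2, with an adjusted p between 0.00536 and 0.079. TRIB2 was at 69.6 to 73.0 CPM and called in no comparison (0.01 ± 0.04 at the higher dose, adjusted p = 0.895).

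Of the 5 LKB1 and AMPK genes, 2 were called at the higher dose (40.0%, against 56.3% of all genes tested). At the lower dose, where edgeR called 32.6% of all genes tested, edgeR and DESeq2 called 0, and 1 had an unadjusted p under 0.05. PRKAA1, the more abundant catalytic subunit, had 65.9 and 69.9 CPM without treatment, 63.7 and 63.2 CPM after the lower dose and 60.3 and 59.4 CPM after the higher dose. The values descended without overlap. PRKAA1 fell by 11.9% at the higher dose (−0.18 ± 0.04, adjusted p = 0.00012). At the lower dose PRKAA1 (−0.10 ± 0.04, adjusted p = 0.0533) lay just outside the threshold and was called under 5 of 13 alternatives, with an adjusted p between 0.000667 and 0.437. After the correction it was called at −0.28 at the higher dose and −0.16 at the lower dose. STK11, which encodes LKB1, rose by 11.8% at the higher dose (0.16 ± 0.04, adjusted p = 0.000837), and at the lower dose was called only after the correction (0.13). The other catalytic subunit PRKAA2, at 7.49 and 6.43 CPM without treatment (0.10 ± 0.11), and the regulatory subunits PRKAB1 (0.10 ± 0.06) and PRKAG1 (−0.02 ± 0.04) were not called at the higher dose either.

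**Figure D2:**
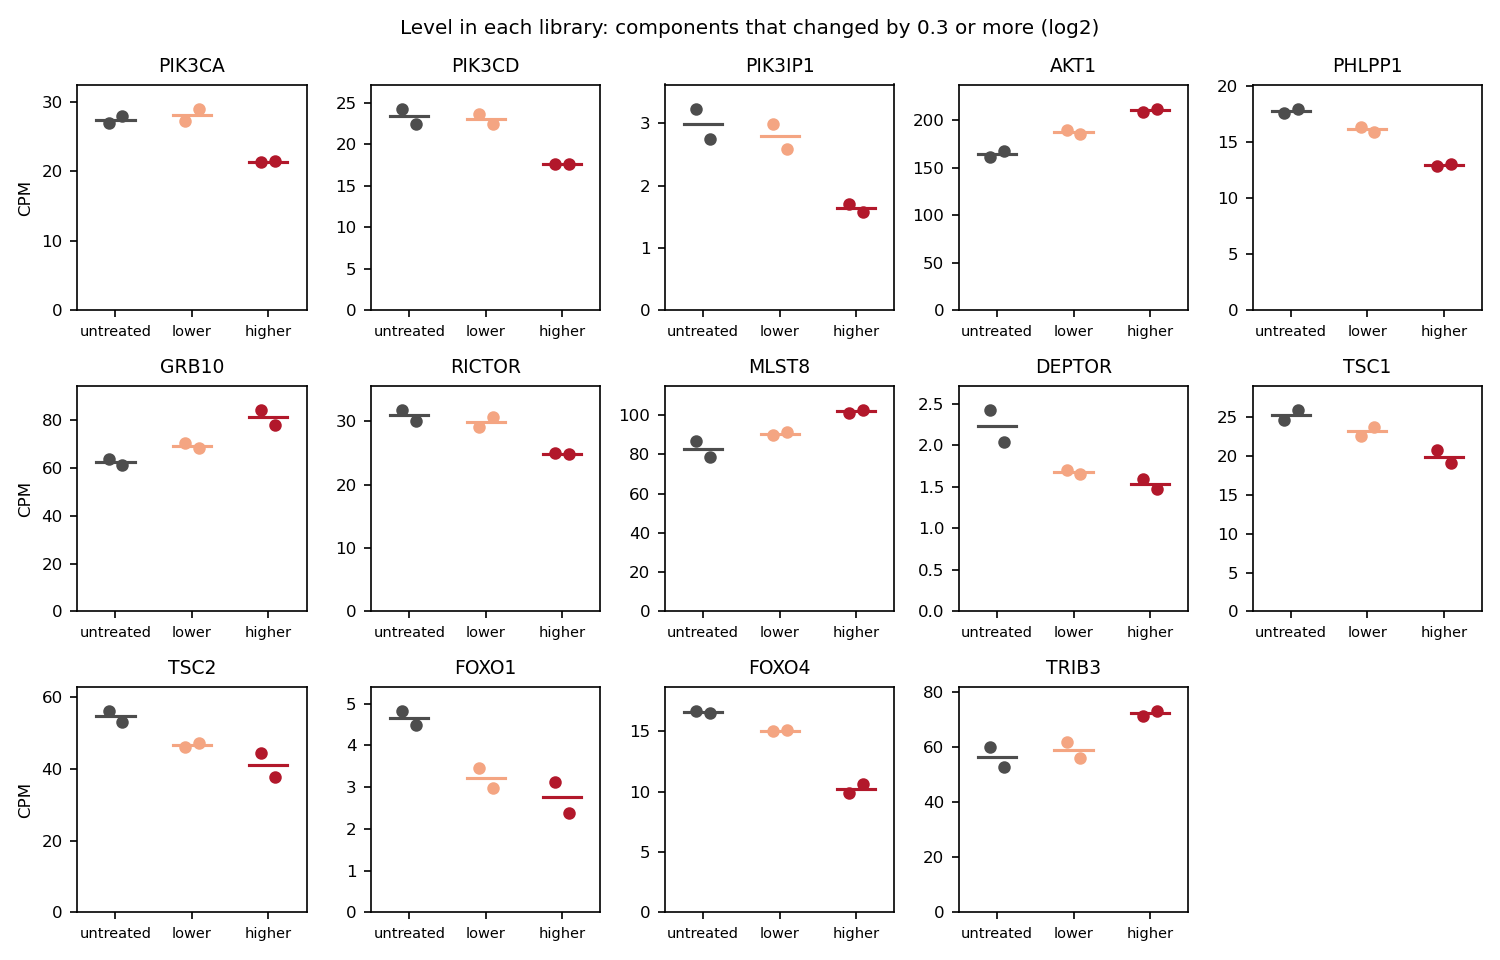
CPM in each library (points) and the mean of the 2 libraries (line) for the 14 components called with a log2 change of 0.3 or more in a comparison, in untreated cells and at the lower and higher dose; every axis starts at 0. PIK3CA, PIK3CD and RICTOR have overlapping untreated and lower dose libraries and lower higher dose libraries, FOXO4 is slightly lower at the lower dose and far lower at the higher dose, and AKT1 and GRB10 climb with dose.

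Activators were set against inhibitors over the 3 conditions. The activators were the catalytic subunits, AKT and AGC kinases, mTOR complex subunits, RHEB, Rags and S6 or RSK kinases (19 tested), and the inhibitors the phosphoinositide, AKT and mTOR restraints (10 tested). At the higher dose 7 activators rose, 8 fell and 4 were not called, with a median log2 fold change of 0.01. Of the inhibitors 3 rose (GRB10, AKT1S1 and DDIT4), 6 fell (PIK3IP1, INPPL1, PHLPP1, DEPTOR, TSC1 and TSC2) and 1 was not called, with a median of −0.26. At the lower dose 6 activators rose and 1 fell (median 0.04), while 2 inhibitors rose and 3 fell (median −0.12). Between the doses 3 activators rose and 5 fell (median −0.05), and 3 inhibitors rose and 5 fell (median −0.13). Over all genes tested 28.1% rose and 28.2% fell at the higher dose, 16.7% rose and 15.9% fell at the lower dose, and 16.4% rose and 17.6% fell between the doses. The median over all genes tested was −0.00 in each comparison, with the central 90% of genes between −0.58 and 0.52 at the higher dose and between −0.34 and 0.34 at the lower dose. Both sides held rises and falls, and the difference between the sides was not tested. With length and GC content taken out, the inhibitor median was −0.15 at the higher dose, where 3 rose and 5 fell, and −0.05 at the lower dose. That of the activators was 0.03 at the higher dose and 0.07 at the lower dose, with 7 higher and 6 lower at the higher dose and 8 higher at the lower dose.

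**Figure D3:**
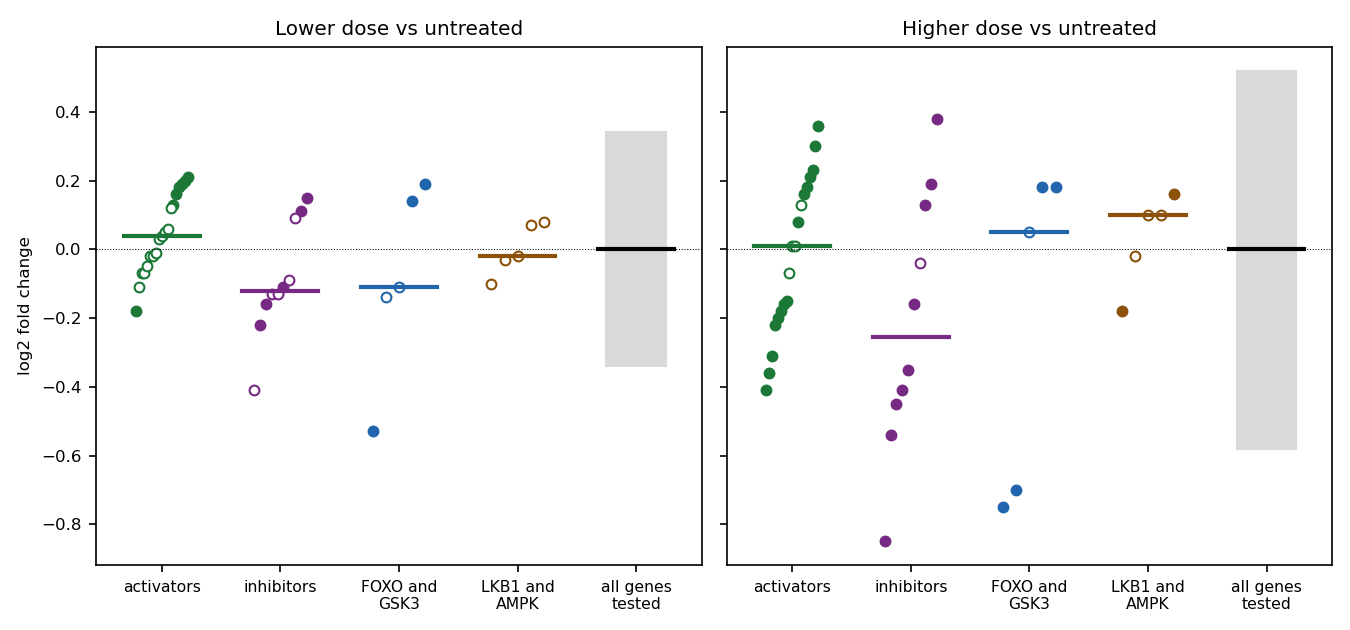
Log2 fold change of each tested component at the lower and the higher dose against untreated cells, with activators, inhibitors, FOXO and GSK3 genes and LKB1 and AMPK genes in separate columns; filled points were called, lines are medians, and the grey box spans the central 90% of all genes tested. At the higher dose the inhibitor median is −0.26 and the activator median 0.01, with points of both sides above and below 0.

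The components followed the doses in several forms. In 33 of the 45 (73.3%, against 64.8% of all genes tested) the lower dose mean lay between those of the other conditions, and in 12 it did not. PIK3R2, AKT1, GRB10, MLST8 and AKT1S1 were called higher at each step (11.1%, against 8.26% of all genes), and TSC2 lower at each (2.22%, against 8.41%). A group of 9 (20%, against 7.53% of all genes) was called lower at the higher dose against both other conditions without a call at the lower dose: PIK3CA, PIK3CB, PIK3CD, PIK3IP1, SGK1, PHLPP1, RICTOR, TSC1 and FOXO4. The opposite form, a rise against both others at the higher dose only, was held by PIK3R3, RPTOR, TRIB1 and TRIB3 (8.89%, against 6.63%). MAPKAP1, RHEB, RPS6KB2, GSK3A and GSK3B were higher at both doses with no called difference between them (11.1%, against 6.81%). In 8 components (17.8%, against 38.8% of all genes) edgeR called no comparison: PIK3R1, RRAGA, RRAGC, RPS6KB1, TRIB2, PRKAA2, PRKAB1 and PRKAG1. The call between the doses ended for some of these with 1 library left out. Without higher dose a it ended for PIK3CB (−0.09), SGK1 (−0.14), TRIB1 (0.26) and AKT1S1 (0.07), and without higher dose b for PIK3R2 (0.05), RPTOR (0.07), AKT1S1 (0.08), TSC1 (−0.16) and TSC2 (−0.07). Without lower dose a it ended for PIK3R2 (0.08) and SGK1 (−0.17), and without lower dose b for PIK3CB (−0.10), PIK3R2 (0.07), RPTOR (0.08), AKT1S1 (0.05) and TSC1 (−0.18). After the length and GC correction it ended for PIK3CB (−0.13), PIK3R2 (0.04) and AKT1S1 (0.05). With DESeq2 it ended for PIK3CB (−0.15), SGK1 (−0.18), TSC1 (−0.22), TSC2 (−0.18), TRIB1 (0.30), RPTOR (0.12), PIK3R2 (0.08) and AKT1S1 (0.08). DESeq2 gave PIK3IP1 no adjusted p between the doses.

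Falling components had longer transcripts. At the higher dose the median transcript length was 4656 bases for the 17 that fell, 2187 for the 17 that rose and 2778 for the 11 not called, against 2570 over genes tested. With length and GC content taken out 32 were called, 18 higher and 14 lower, against 34 before, and no call turned its sign. INPPL1, PDPK1, MTOR, RHEB and RPS6KA1 were no longer called, and FOXO3, RRAGA and RRAGD were called. Among the large changes PIK3IP1 was at −0.81, FOXO4 at −0.66, FOXO1 at −0.65, DEPTOR at −0.53, GRB10 at 0.43, AKT1 at 0.42 and TRIB3 at 0.36, close to or above their size before. Smaller than before were PHLPP1 (−0.29, against −0.45), TSC2 (−0.26, against −0.41), PIK3CD (−0.27, against −0.41) and TSC1 (−0.26, against −0.35).

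**Figure D4:**
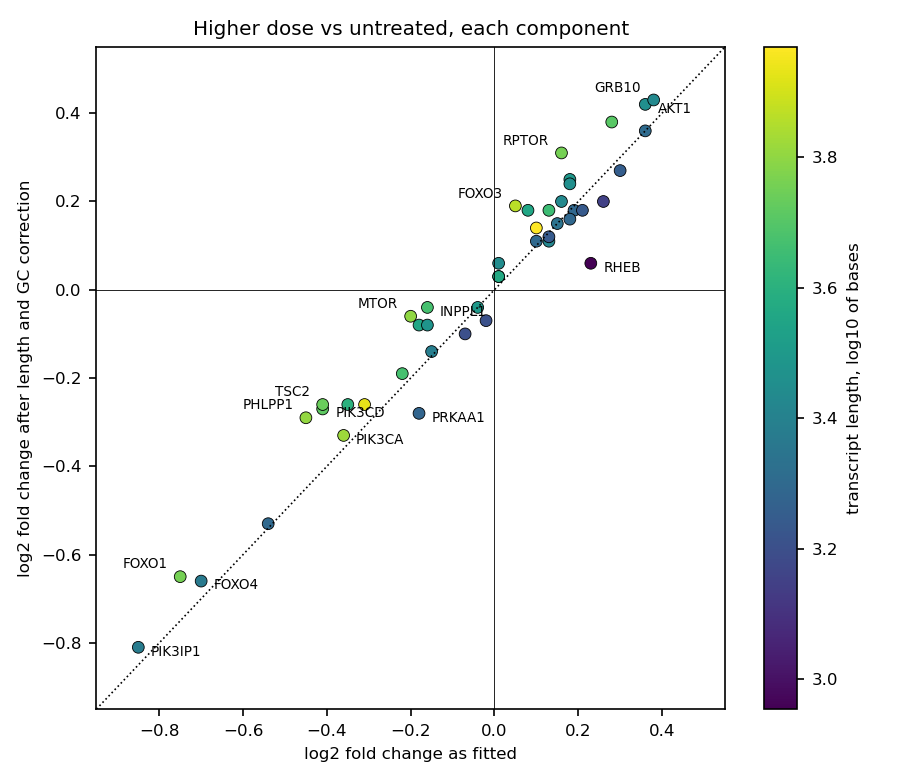
Log2 fold change at the higher dose against untreated cells before (x axis) and after (y axis) the correction for transcript length and GC content, 1 point for each tested component, coloured by log10 transcript length, with a dotted line where both are equal. INPPL1 (−0.16 before, −0.04 after) and RHEB (0.23 before, 0.06 after) move toward 0, and FOXO1, FOXO4 and PIK3IP1 stay near the line.

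Levels between genes were compared per kilobase of transcript, in untreated cells. RHEB was highest at 328 CPM per kilobase, followed by PIK3R2 (96.4), AKT1S1 (95.1), DDIT4 (89.2), RRAGA (64.2) and AKT1 (57.2). The catalytic PI3K subunits were far lower, at 6.04 for PIK3CB, 4.51 for PIK3CD and 4.14 CPM per kilobase for PIK3CA, and so were the regulatory subunits PIK3R1 (6.68) and PIK3R3 (3.93). FOXO4 (7.14) and FOXO3 (3.32) exceeded FOXO1 (0.812), and PRKAA1 (35.4) exceeded PRKAA2 (0.747), the lowest tested component.

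A further 82 genes of the same pathway were looked at, of which 81 were in the files and 73 were tested. At the higher dose 23 rose and 21 fell (60.3% called, against 56.3% of all genes), at the lower dose 12 rose and 8 fell (27.4%, against 32.6%), and between the doses 14 rose and 15 fell (39.7%, against 34.0%). PDCD4, an inhibitor of translation that S6K1 marks for destruction, fell most at the higher dose (−1.29 ± 0.05, adjusted p = 5.49e-29), with −0.49 ± 0.04 at the lower dose. SESN3, a sestrin gene that FOXO factors induce, fell at the higher dose (−0.87 ± 0.19, adjusted p = 9.99e-05), while SESN2, a leucine sensor and ATF4 target, rose (0.54 ± 0.08, adjusted p = 1.87e-08). PIK3C2B, a class II PI3K, fell (−0.71 ± 0.10, adjusted p = 7.77e-09), and so did the phosphatase gene INPP5J (−0.76 ± 0.26, adjusted p = 0.0109), whose call was lost without untreated b, without higher dose b and with DESeq2 (−0.81 to −0.70 over its alternatives). EIF4EBP1, the translation repressor that mTOR complex 1 phosphorylates, rose at the higher dose (0.44 ± 0.03, adjusted p = 1.97e-18) and at the lower dose (0.27 ± 0.03, adjusted p = 3.83e-10). MIOS, a subunit of the amino acid relay GATOR2 (0.44 ± 0.07), and the ribosomal protein RPS6 (0.36 ± 0.03) rose at the higher dose. Of 7 Ragulator and Rag genes 5 rose at the higher dose and 1 fell, where 28.1% of all genes tested rose and 28.2% fell. At the lower dose 4 of 7 rose, against 16.7% of all genes, LAMTOR3 (0.24 ± 0.06) and RRAGB (0.23 ± 0.08) among them. The part of transcript length in these rises was not tested. With length and GC content taken out no gene named from this list lost its call. Over 13 alternatives, that correction among them, RPS6 ran from 0.23 to 0.38 and EIF4EBP1 from 0.30 to 0.47 at the higher dose.

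WDR24, a further GATOR2 subunit (0.25 ± 0.08), rose at the lower dose, where INPP5J (−0.85 ± 0.26), WDR59 (−0.29 ± 0.08) and the folliculin partner FNIP1 (−0.25 ± 0.07) fell. All of these, and RRAGB, lost their call with some libraries left out. With DESeq2 the lower dose calls of WDR24, RRAGB, WDR59 and FNIP1 were lost as well. Without untreated a RRAGB was at 0.06 and WDR59 at −0.24, and without untreated b WDR24 was at 0.23 and INPP5J at −0.79. Without lower dose a RRAGB was at 0.24, INPP5J at −0.76 and WDR59 at −0.25, and without lower dose b RRAGB was at 0.21, WDR24 at 0.25 and FNIP1 at −0.17. Between the doses SESN2 (0.48 ± 0.08), TELO2, which assembles mTOR (0.35 ± 0.06), MIOS (0.33 ± 0.07) and the AKT substrate BAD (0.23 ± 0.04) were higher at the higher dose. PDCD4 (−0.80 ± 0.05), SESN3 (−0.70 ± 0.20), the autophagy kinase ULK1 (−0.57 ± 0.07) and PIK3C2B (−0.50 ± 0.10) were lower there. SESN3 lost this call without higher dose a (−0.59) and without lower dose b (−0.40).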

How the data were processed

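Polysome-associated polyadenylated RNA was sequenced from 6 libraries, 2 for each of 3 conditions, grouped by their treatment labels. The deposited values are whole-number read counts per gene that the authors made with HTSeq. CASAVA 1.8.1, TopHat 1.4.0 and the build hg19 are named as well, per the submitters' processing notes. The annotation and strand setting were not given in the sources used here, so reads of overlapping genes cannot be told apart. The 5 summary lines (9.4% to 10.2% of reads) entered neither library sizes nor tests. All 6 libraries entered one edgeR 4.0.16 fit (R 4.3.3; TMM, filterByExpr, robust quasi-likelihood with 3 group means, two-sided F test, 3 residual degrees of freedom), with Benjamini-Hochberg adjustment over the 13548 genes that passed; 8071 did not. TMM treats most genes as unchanged, so changes are relative to other genes. Standard errors were derived from the F statistic.

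The members, lists and tests were chosen with earlier results of these data known. Values in every library are given for members called with an absolute log2 fold change of 0.3 or more in the same direction in all 4 library pairs, and for the member with the most reads in each other role; DDIT4 was added after its values were seen. Of the other pathway genes up to 4 rises and 4 falls per comparison are named. Alternatives were DESeq2 1.42.0, its size factors in edgeR, no filter on low counts, a filter of 50 reads, a replicate block, only the groups compared, a correction for transcript length and GC content (known for 88.3% of genes tested) and each library left out. The fit was checked on simulated data. Replicates differed by more than counting noise (chi-square per degree of freedom 1.98 for untreated cells, 1.69 for the lower dose and 1.52 for the higher dose). Limits from counts cover counting error only. Some genes of the lists are not reported here.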

Additional observations from a re-analysis of the deposited data

How the results depend on the processing

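No called member turned its direction under any alternative. Of 135 member values, 72 were called, and DESeq2 lost 19 of these calls among the 130 values for which it gave an adjusted p. It gave none for 2 further calls, FOXO1 at the lower dose and PIK3IP1 between the doses. The length and GC correction lost 10 and gained 8. With DESeq2, 10 members were called at the lower dose against untreated cells and 11 between the doses, 10 other pathway genes at the lower dose, and 2617 and 2823 genes in all in these comparisons. With length and GC content taken out the median was 0.07 for activators at the lower dose, −0.15 for inhibitors at the higher dose and −0.05 for inhibitors at the lower dose. The cause of these shifts was not tested. Leaving out 1 library gave 10 to 16 members called at the lower dose, with the low end without lower dose a, 29 to 34 at the higher dose and 15 to 22 between the doses. It gave 12 to 19 other pathway genes at the lower dose. The inhibitor median then ran from −0.13 to −0.09 at the lower dose and from −0.14 to −0.07 between the doses, and the activator median between the doses from −0.05 to −0.02. With one library left a group is assumed to vary like the others.

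The letters a and b showed no shared difference across the conditions. Correlations of the a minus b differences were 0.00254 between the higher dose and untreated cells, −0.045 between the lower dose and untreated cells and −0.0348 between the doses. Such values cannot show whether the cultures were paired. With the replicate block 34, 16 and 19 members were called at the higher dose, at the lower dose and between the doses. Members with few reads, such as SGK3, DEPTOR, PIK3IP1 and FOXO1, are limited by depth.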
